A study of Mus musculus with 13 samples.

Results

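The genes described here are 10 components of the canonical Wnt pathway, chosen from the 15213 genes listed for mammary tumors and mammary glands. They comprise the R-spondin receptors Lgr4, Lgr5 and Lgr6, the feedback targets Axin2, Nkd1, Nkd2 and Notum, and the transcription factors Lef1, Tcf7 and Tcf7l1. Earlier results of these data were known when the group was put together, and its levels in tumors against glands were part of that knowledge. The levels and differences of the 10 genes in this contrast are therefore given as a description, with no p-value.

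The samples were 10 mammary tumors, which arose in 6 MMTV-tTA TetO-Tsg101 females, and 3 mammary glands, each from a different wild-type FVB female, and their RNA was sequenced. In the double transgenic females, written MtTA Teto-TSG101wt in the labels, the MMTV promoter drives the tetracycline-controlled transactivator (tTA) in the luminal epithelium, and tTA switches on a TetO transgene that encodes TSG101, an ESCRT protein of endosomal sorting, together with luciferase. The transgene was in its active state without doxycycline. The wild-type glands carry no transgene. They therefore differ from the tumors in transgene, in disease and possibly in age and parity, which the labels do not give for either group. The tumor-bearing females, of which 3 contributed a single tumor, are called A (tumor 1), B (tumors 2 and 3), C (tumor 4), D (tumors 5 and 6), E (tumor 7) and F (tumors 8, 9 and 10).

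Wnt ligands stabilize beta-catenin, which then binds the Lef/Tcf factors on DNA and turns on target genes. R-spondins bind the Lgr receptors and remove the ubiquitin ligases Rnf43 and Znrf3, which would otherwise clear Wnt receptors from the cell surface. Several targets feed back on the pathway. Axin2 is a scaffold of the complex that degrades beta-catenin, Nkd1 and Nkd2 bind Dishevelled, and Notum is a secreted enzyme that removes the lipid from Wnt ligands. In epithelia, Lgr5 and Axin2 are widely used markers of Wnt-responsive stem cells, and in the mammary gland R-spondin 1 is a known hormone-induced factor of luminal cells. Lef1 and Tcf7 are also prominent in T cells, where Tcf7 encodes TCF1.

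Depth ranged from 6176269 to 16835397 reads for tumor libraries and from 11672487 to 23889042 for gland libraries. Levels are given in normalized cpm, that is, read counts relative to the depth of the library and scaled further by the authors. Tsg101 itself ranged from 49.9 to 101.3 normalized cpm in the tumors, and was at 45.6, 53.0 and 61.0 in the glands, and 6 of 10 tumors were above all glands. Glands 1 and 3 stood apart from gland 2 in genes of lymphocytes. The summed level of 20 such genes was 1470 and 1474 in glands 1 and 3, 77.03 in gland 2 and between 82.3 and 322 in the tumors. All 20 were higher in glands 1 and 3 than in any tumor, against 2 of 20 in gland 2. No gene of this list was at 0 in a gland. The pan-epithelial list summed to between 3031 and 4357 in the tumors and to between 1934 and 3971 in the glands, whereas fibroblast genes summed to between 420 and 1170 in the tumors and between 3943 and 4494 in the glands. Summed levels of milk genes (1384 to 76623 in tumors, 165034 to 305121 in glands) were lower in every tumor as well. So were those of adipocyte genes (14.0 to 374 and 3243 to 10738) and endothelial genes (58.7 to 136 and 239 to 619). Squamous genes were higher (428 to 3493 and 17.1 to 40.5). Of the 8 fibroblast genes, 4 were called lower in tumors (Col1a1, Col1a2, Col3a1 and Lum). The other 4 were not called, with differences from -0.85 (Pdgfrb) to 0.41 (Pdgfra). Of 8 basal or myoepithelial genes, 7 passed the filter, of which 3 were called higher in tumors (the basal keratins Krt5 and Krt14 and the basal transcription factor Trp63) and 4 were called lower, among them the contractile genes Acta2 (-4.32) and Myh11 (-5.05). Gland 3 had the lowest depth of the glands and 4.35% of its reads on Rn45s, a ribosomal RNA precursor, against 0.324% and 0.296% in glands 1 and 2. In bulk tissue, fewer cells of a type and less RNA per cell cannot be told apart.

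A fitted difference below is the tumor mean minus the gland mean of log2(normalized cpm + 1). A gene was called when limma gave an FDR below 0.05 over all genes tested and the change was more than 2-fold. Of the 11795 genes tested, 17.2% were called, 10.2% as higher and 6.99% as lower in tumors. Of the 10 genes described here, 9 passed the filter on low values, 5 were called higher and 1 was called lower. These counts restate the values that led to the choice of the genes, and nothing is read from them. Lgr5, Nkd2 and Notum passed the filter through their 10 tumors alone. Nkd1 lost its call against gland 2 alone, after scaling to pan-epithelial genes and with a replicate block, and Tcf7l1 lost its call without gland 1, without gland 2, without female F and with the block. Tcf7 gained a call as lower by edgeR, by DESeq2, after scaling and without gland 2, and as higher against gland 2 alone, and Lef1 gained one as lower without the filter and with a filter that keeps genes above 5 in 3 libraries. In the fit against gland 2 alone, the spread comes from the tumors, and the lone gland is assumed to vary as they do. The replicate block takes the number of a library as a term. Tumors 4 to 10 share their number with no gland, so with the block only tumors 1 to 3 are compared with the glands. All 10 tumors lay above all 3 glands for 5 of the 10 genes, and for 10.7% of the genes tested. For none of the 10 genes did all tumors lie below all glands, while 8.53% of the genes tested did so.

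**Figure D1:**
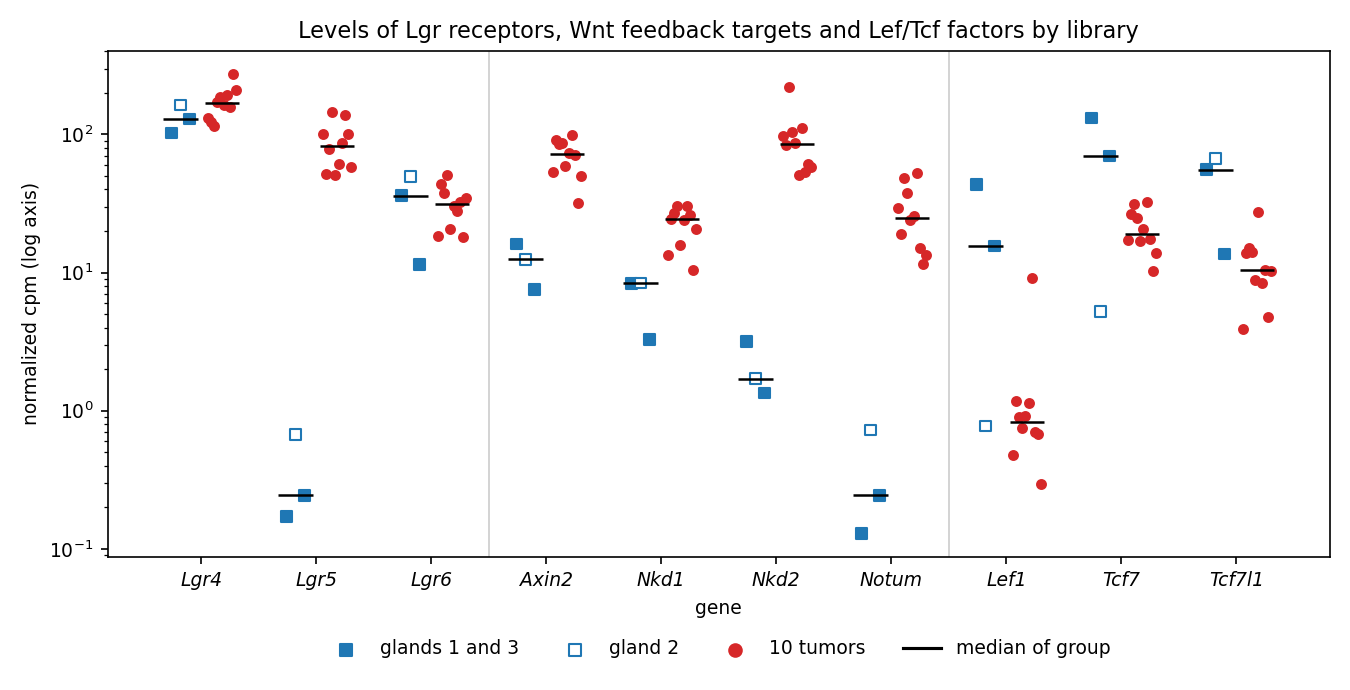
Level of each of the 10 genes in normalized cpm (log axis) in the 13 libraries, with squares for glands, circles for tumors and a line at each group's median. The tumors lie above every gland for Lgr5, Axin2, Nkd1, Nkd2 and Notum, whereas gland 2 (open square) lies far below glands 1 and 3 for Lef1 and Tcf7.

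Among the R-spondin receptors, Lgr5 was nearly silent in the glands and abundant in every tumor, while Lgr4 and Lgr6 were expressed in both tissues. Lgr5 stood at 0.171, 0.671 and 0.244 normalized cpm in glands 1, 2 and 3, which corresponds to 4, 13 and 2 reads. In the tumors it ranged from 51.2 in tumor 5 to 146.5 in tumor 4, with a median of 82.7. The lowest tumor was therefore far above the highest gland. Its mean was 241-fold higher in tumors, 87.3 ± 34.4 normalized cpm (SD, n = 10) against 0.362 ± 0.270 (SD, n = 3). The fitted difference was 5.94 with a standard error of 0.31. The 241-fold rests on these few gland reads and was 421-fold without gland 2, and gland 3 lies below the 3 reads that a count of 0 allows at 95% confidence. The log2 scale used understates the change of a gene so low in one group, and edgeR on the recovered reads gave 7.82.

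Lgr4 was the most abundant of the receptors per kilobase of exon in both tissues. It was at 102.5, 163.2 and 129.7 normalized cpm in the 3 glands and between 114.3 and 274.9 in the tumors, with a median of 168.4. Of the tumors, 6 lay above all glands and the others within the range of the glands. The fitted difference was 0.37 (SE 0.24). Lgr6 overlapped in all but 1 tumor, tumor 4, which lay just above the highest gland, with 36.1, 49.7 and 11.5 normalized cpm in the glands and 17.98 to 50.9 in the tumors around a median of 31.4. Its fitted difference was 0.11 (SE 0.38), and it changed sign when a single gland was left out, with values between -0.49 (without gland 3, whose depth was the lowest of the glands) and 0.52.

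Per kilobase of exon, which allows levels of different genes to be set side by side, the Lgr family changed its order between the tissues. Lgr4 was above Lgr5 in all 3 glands and in all 10 tumors, by 1.06 to 3.38 times in the tumors. In gland 2, where Lgr5 had 13 reads, the ratio was 227, and no ratio is given for glands 1 and 3 with their 4 and 2 reads. Lgr5 was below Lgr6 in all 3 glands and above it in all 10 tumors, by 1.66 to 7.97 times. Exon lengths were those of the GENCODE M21 basic annotation, so these ratios are approximate where the authors counted over other exons.

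The feedback targets Axin2, Nkd1, Nkd2 and Notum all had higher levels in every tumor than in every gland. Axin2 was at 16.1, 12.5 and 7.56 normalized cpm in glands 1, 2 and 3, and at 32.1 in the lowest tumor, 72.0 at the median and 99.4 in the highest. The lowest, tumor 9, was still 1.99 times the highest gland. The fitted difference was 2.43 (SE 0.30), and the means were 5.81-fold apart. Nkd1 had the smallest difference of the 4 genes, with 8.35, 8.42 and 3.29 normalized cpm in the glands and a tumor range of 10.5 to 30.2 around a median of 24.3. Tumor 9 came within 1.24 times of gland 2, and the fitted difference was 1.62 (SE 0.32).

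Nkd2 and Notum, in contrast, were low in the glands. Nkd2 was at 3.17, 1.70 and 1.34 normalized cpm in glands 1, 2 and 3 and between 51.3 and 218.8 in the tumors, with a median of 85.3. Its mean was 44.7-fold higher in tumors and the fitted difference was 4.84 (SE 0.36). Notum was at 0.128, 0.723 and 0.244 normalized cpm in the glands, or 3, 14 and 2 reads, and between 11.6 and 52.2 in the tumors around a median of 24.8. In glands 1 and 3 this is no more than 3 reads, a level at which a count of 0 cannot be told apart at 95% confidence. The means of Notum were 75.5-fold apart, or 148-fold without gland 2, and the fitted difference was 4.25 (SE 0.40), against 6.16 from edgeR on the recovered reads. The paralogs Nkd1 and Nkd2 exchanged their order. Per kilobase of exon, Nkd2 was below Nkd1 in all 3 glands and above it in all 10 tumors, by 2.30 to 9.17 times.

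For the 5 genes whose groups did not overlap, the sign cannot turn when libraries are left out, and only the size can move. Against gland 2 alone, the gland with few lymphocyte transcripts, the differences were 5.63 for Lgr5, 2.33 for Axin2, 1.24 for Nkd1, 4.98 for Nkd2 and 3.89 for Notum. When each library was scaled to its pan-epithelial genes, the median of all genes moved to -0.78, and the differences were 5.59 for Lgr5, 4.20 for Nkd2, 3.91 for Notum, 1.66 for Axin2 and 0.89 for Nkd1. On that scale Lgr4 and Lgr6 turned negative, at -0.45 and -0.68, both above the shifted median.

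**Figure D2:**
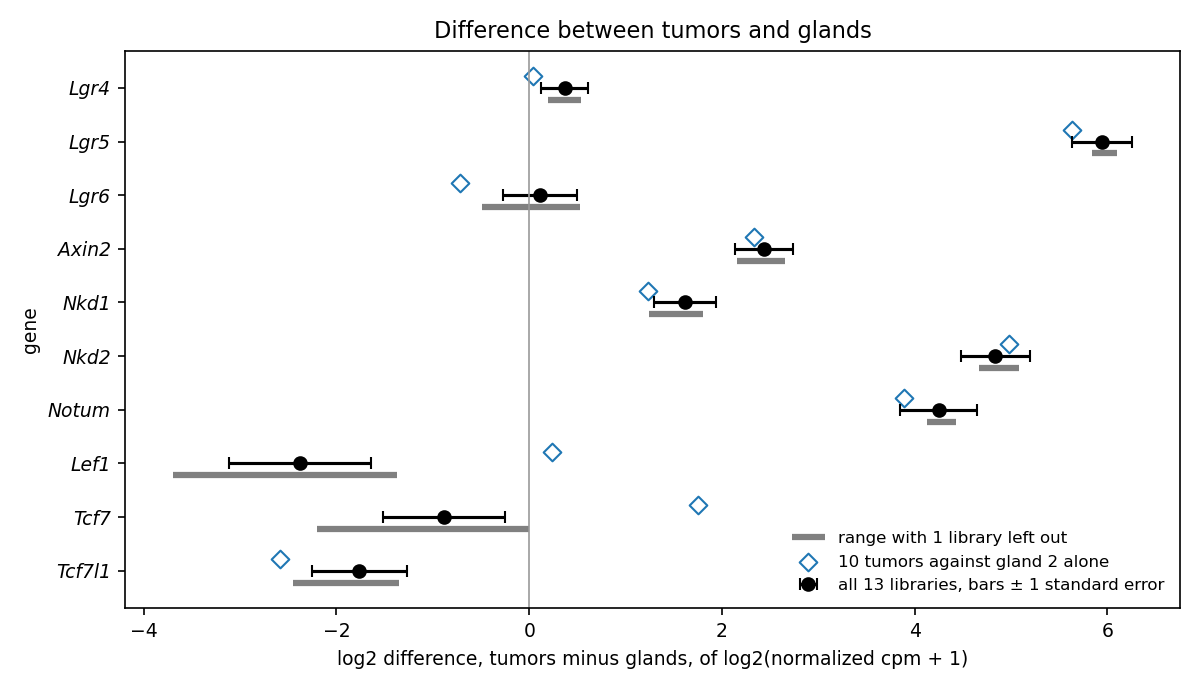
Fitted difference between tumors and glands for the 10 genes, as log2(normalized cpm + 1) of tumors minus glands, with black points and ± 1 standard error for all 13 libraries, grey bars for the range with 1 library left out and open diamonds for the 10 tumors against gland 2 alone. Lgr5, Nkd2 and Notum lie at 3.89 or above in every version, whereas Tcf7 is at -0.88 with all libraries and at 1.75 against gland 2.

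None of the Lef/Tcf factors had a higher mean in tumors with all libraries, and for Tcf7 and Lef1 the sign of the difference turned with the glands taken. Tcf7, the gene of TCF1, was at 131.4, 5.21 and 69.6 normalized cpm in glands 1, 2 and 3. The tumors ranged from 10.2 to 32.3 with a median of 19.0. Every tumor was therefore below glands 1 and 3 and above gland 2. The fitted difference was -0.88 (SE 0.64). It was 0.0018 without gland 1, -2.20 without gland 2 and 1.75 against gland 2 alone. It was -1.73 by edgeR on the recovered reads, -1.71 by DESeq2 and -1.69 after scaling to pan-epithelial genes.

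Lef1 showed the same split between the glands but was scarce in nearly all tumors. It was at 43.3, 0.774 and 15.6 normalized cpm in glands 1, 2 and 3. In the tumors the lowest value was 0.296, the median 0.825 and the highest 9.12, in tumor 7. Leaving tumor 7 aside, no tumor exceeded 1.18 normalized cpm, and 5 of 10 tumors lay below gland 2. Lef1 failed the filter on low values, with 3 of 13 libraries above 5 normalized cpm. In the fit without the filter its difference was -2.38 (SE 0.73), between -3.69 (without gland 2) and -1.37 (without gland 1) when 1 library was left out, and 0.24 against gland 2 alone.

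Lymphocyte genes and Tcf7 and Lef1 were all high in glands 1 and 3 and low in gland 2. Between glands 1 and 3 they did not run in parallel, since the summed lymphocyte levels were nearly equal, with 12 of 20 genes higher in gland 1 and 8 in gland 3, whereas Tcf7 and Lef1 were higher in gland 1. Cd3e, a subunit of the T cell receptor complex, was at 78.2, 4.44 and 30.3 normalized cpm in glands 1, 2 and 3. Cd79a, its counterpart in B cells, was at 65.5, 0.981 and 37.1. In both lineages other genes were higher in gland 3 than in gland 1. The T cell gene Cd3d was at 32.4, 1.39 and 93.0, and Ms4a1, which encodes CD20 of B cells, at 47.4, 0.206 and 69.5. Tumor 7 did not share the relation of Lef1 with lymphocyte genes, with 9.12 normalized cpm at a summed lymphocyte level of 117. Its summed level of 13 hair follicle genes was the highest of all libraries at 3796. That sum was 206 to 1802 in the other tumors and 90.5 to 237 in the glands. The sums of squamous genes (3493) and of basal or myoepithelial genes (2981) were also highest in tumor 7. The part of lymphocytes in the difference of Lef1 and Tcf7 between tumors and glands was not tested. Among the tumors, relations with lymphocyte and hair follicle scores are given with the other correlations.

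**Figure D3:**
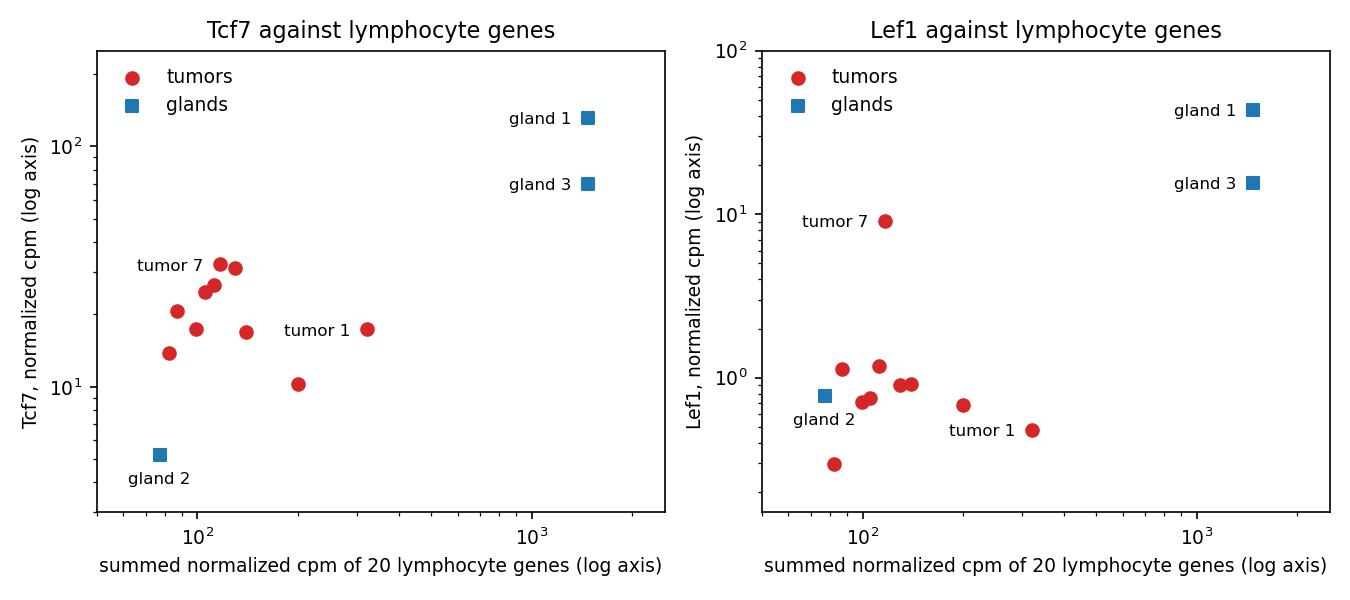
Tcf7 (left) and Lef1 (right) in normalized cpm against the summed normalized cpm of 20 lymphocyte genes in the 10 tumors (circles) and 3 glands (squares), with log scales on all axes. Glands 1 and 3, with summed levels of 1470 and 1474, hold the highest Tcf7 and Lef1, gland 2 lies at 77.03 with Tcf7 at 5.21, and tumor 7 has Lef1 at 9.12 without a high lymphocyte level.

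Tcf7l1, which encodes TCF3 and acts mainly as a repressor of Wnt targets, was lower in most tumors than in the glands. It was at 55.6, 67.0 and 13.7 normalized cpm in glands 1, 2 and 3, so that here gland 3, the gland with the lowest depth and the highest Rn45s share, was the low one. The tumors ranged from 3.90 in tumor 1 to 27.6 in tumor 6, with a median of 10.4. Of the 10 tumors, 6 lay below all glands, 3 lay between 13.8 and 14.95, close to gland 3, and tumor 6 was above it. The fitted difference was -1.76 (SE 0.50). It was -1.48 without gland 1, -1.35 without gland 2, -1.62 without the 3 tumors of female F and -2.59 against gland 2 alone. Per kilobase of exon, Tcf7 exceeded Tcf7l1 in 9 of 10 tumors and Lef1 in all 10, so that Tcf7 was the most abundant of these 3 factors in most tumors.

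Among the other genes of the pathway, Rspo1 was lower in tumors, and no gene of the destruction complex was called. Rspo1, the gene of R-spondin 1, was at 273, 311 and 128 normalized cpm in glands 1, 2 and 3 and between 0.353 and 6.97 in the tumors, with no overlap. It failed the filter because it was low in most tumors, and the fit without the filter gave -5.82 (SE 0.50, limma adjusted p = 9.56e-07). Its adjusted p stayed between 1.27e-06 and 1.09e-05 when libraries were left out. The summed levels of milk, adipocyte, fibroblast and endothelial genes were also lower in every tumor than in every gland. Of the 8 fibroblast genes, however, 4 were not called. The part of these tissue components in the level of Rspo1 was not tested. The ubiquitin ligases removed by R-spondins were not called, with differences of 0.33 (SE 0.31, limma adjusted p = 0.479) for Rnf43 and 0.87 (SE 0.33, limma adjusted p = 0.0617) for Znrf3. Rspo2, Rspo3 and Rspo4 were not among the 15213 genes listed.

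Of the 17 genes of the destruction complex, its regulators and beta-catenin, 16 passed the filter and 0 were called by limma, against 17.2% of all genes tested. By edgeR 1 was called lower, limma called 1 lower without female B and 2 lower without gland 3, and after epithelial scaling 8 were called lower, where 33.9% of all genes tested were called lower. Their median difference was -0.19, against 0.01 over all genes tested. Ctnnb1, which encodes beta-catenin, was above every gland in all 10 tumors but changed by less than 2-fold, with a difference of 0.68 (SE 0.21, limma adjusted p = 0.0239). On the scale of pan-epithelial genes its difference was -0.14, above the shifted median of -0.78.

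The list of the remaining Tcf factor, coactivators and corepressors had 13 genes past the filter, of which 1 was called higher and 0 lower, against 10.2% and 6.99% of all genes tested, with a median difference of -0.34. The gene called was Tle2, a Groucho-type corepressor, with a difference of 1.21 (SE 0.28, limma adjusted p = 0.00531), a call that was lost after epithelial scaling (limma adjusted p = 0.208), with the replicate block (0.113) and against gland 2 alone (0.159, with the spread taken from the tumors). After epithelial scaling 7 genes of this list were called lower, beside 33.9% of all genes tested. The related Tle4 had a difference of -0.93 (SE 0.18, limma adjusted p = 0.00154), just under the 2-fold limit. Without gland 2 its difference was -1.04 and it was called. Tle1 (0.39), Tle3 (-0.39), Tle5 (-0.43) and Tcf7l2 (-0.34), which encodes TCF4, were not called, with limma adjusted p between 0.198 and 0.583.

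Of 17 further beta-catenin feedback and target genes, 13 were among the 15213 genes listed, and 12 of these passed the filter. In tumors 6 were called higher and 0 lower, against 10.2% and 6.99% of all genes tested, and the median difference was 1.08. The count was 2 higher and 1 lower after epithelial scaling (4.71% and 33.9% of all genes tested) and 4 higher and 1 lower without gland 3 (12.9% and 9.46%). It was 3 higher with the replicate block (3.07% of all genes) and 3 higher against gland 2 alone (7.89%). Summed levels of proliferation genes (322 to 521 in tumors, 145 to 306 in glands) were also higher in every tumor than in every gland. So were those of macrophage genes (309 to 514 and 212 to 274). Of these lists, 4 of 8 proliferation and 3 of 6 macrophage genes were called higher and 0 lower. The part of proliferation and macrophage genes in the calls of the target list was not tested. Cd44, a hyaluronan receptor, lay between 266 and 592 normalized cpm in the tumors against 38.5, 20.96 and 33.9 in glands 1, 2 and 3. Its difference was 3.52 (SE 0.24, limma adjusted p = 1.58e-07). Ascl2, a transcription factor of intestinal stem cells, ranged from 5.01 to 12.6 normalized cpm in the tumors and reached at most 0.774 in the glands. It passed the filter through the tumors alone, and the fit without the filter gave a difference of 2.73 (SE 0.28, limma adjusted p = 3.50e-06).

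Wif1 and Ccnd1 were called with all libraries but not in every smaller set of libraries. Wif1, a secreted Wnt inhibitor, varied from 12.1 normalized cpm in tumor 1, below all glands, to 264 in tumor 7. Its difference of 1.92 (SE 0.61, limma adjusted p = 0.0297) lost its call without any one of the 3 glands (adjusted p 0.107, 0.0668 and 0.0671), without female D (0.0571) and without female F (0.0671). Ccnd1, the gene of cyclin D1, had a difference of 1.05 (SE 0.28, limma adjusted p = 0.0120), which fell to 0.61 without gland 3 (adjusted p = 0.0762) and to 0.98, under the 2-fold limit, without female B. Myc, another classic target, did not differ beyond the spread of the libraries, with 0.07 (SE 0.20, limma adjusted p = 0.829).

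Variation among the tumors was not used to choose the 10 genes. Tumor 7 had the highest level of Axin2, Nkd1, Notum, Lef1 and Tcf7, and tumor 9 had the lowest level of Lgr6, Axin2, Nkd1, Notum and Tcf7. Tumor 9 also had the highest Lgr4 and the largest share of reads on Rn45s, with 27.4% against 0.456% to 9.32% in the other tumors. The genes varied to different extents, from a standard deviation across tumors of 0.38 for Lgr4 to 0.83 for Lef1 on the log2 scale. The highest tumor exceeded the lowest by 2.41 times for Lgr4, 4.27 times for Nkd2, 4.50 times for Notum and 7.07 times for Tcf7l1. No ratio is given for Lef1, which had 2 reads in its lowest tumor and stood apart in tumor 7.

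To follow this variation with animals as the unit, the log2 levels were averaged over the tumors of each female and the other 9 genes were correlated with Axin2 across the 6 females, with exact permutation tests (two-sided, smallest possible p = 0.00139 for r and 0.00278 for rho) adjusted over the 9 relations. Tcf7 followed Axin2 most closely. Pearson's r was 0.974 (exact p = 0.00417, adjusted p = 0.0375) and Spearman's rho was 1.00 (exact p = 0.00278, adjusted p = 0.0250), so that the 6 females had the same order in both genes. The r was 0.971 without the 2 females farthest from the median of Axin2. Female E was highest, with 6.65 for Axin2 and 5.06 for Tcf7, and female F was lowest, with 5.63 and 3.86.

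The relation of Tcf7 with Axin2 was the only one of the 9 that passed the adjustment. Its r lay between 0.958 and 0.987 when any 1 female was left out. With 5 females the smallest possible p is 0.00833 for r by the exact test, which gives 0.0750 when a single relation reaches it. A lone relation could therefore not pass there whatever its r, while several at that p could. The smallest adjusted p lay between 0.0563 and 0.0750. Without tumor 9, r was 0.950 and the adjusted p 0.0813, and after scaling to pan-epithelial genes r was 0.959 and the adjusted p 0.0833. Nkd1 (r = 0.912, rho = 0.886) and Notum (r = 0.842, rho = 0.886) both had an adjusted p of 0.0708 for r and 0.0600 for rho by the exact permutation test, and thus did not pass. Without the 2 farthest females their r was 0.927 and 0.882.

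For the receptor Lgr5 no relation with Axin2 was detected, and the difference between its r and that of Tcf7 was not tested. Its r with Axin2 was -0.00198 and its rho -0.257 across the 6 females, by exact tests with p = 1.00 and 0.658, and r was 0.488 without the 2 farthest females. Lgr4 had r = -0.111 and rho = -0.257. The females with the highest Lgr5 were C and A, at 7.20 and 6.67 on the log2 scale. Of these, A had the lowest Axin2 except for female F. Tumor 4, the only tumor of female C, had the highest summed level of 4 skeletal muscle genes, at 1439 normalized cpm. The part of muscle in its Lgr5 was not tested. The remaining relations had r of 0.750 for Nkd2, 0.658 for Lef1, 0.634 for Lgr6 and 0.517 for Tcf7l1, with adjusted p between 0.173 and 0.370 by the exact permutation test. With 6 females, a p that missed the threshold does not show that a gene varies independently of Axin2.

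**Figure D4:**
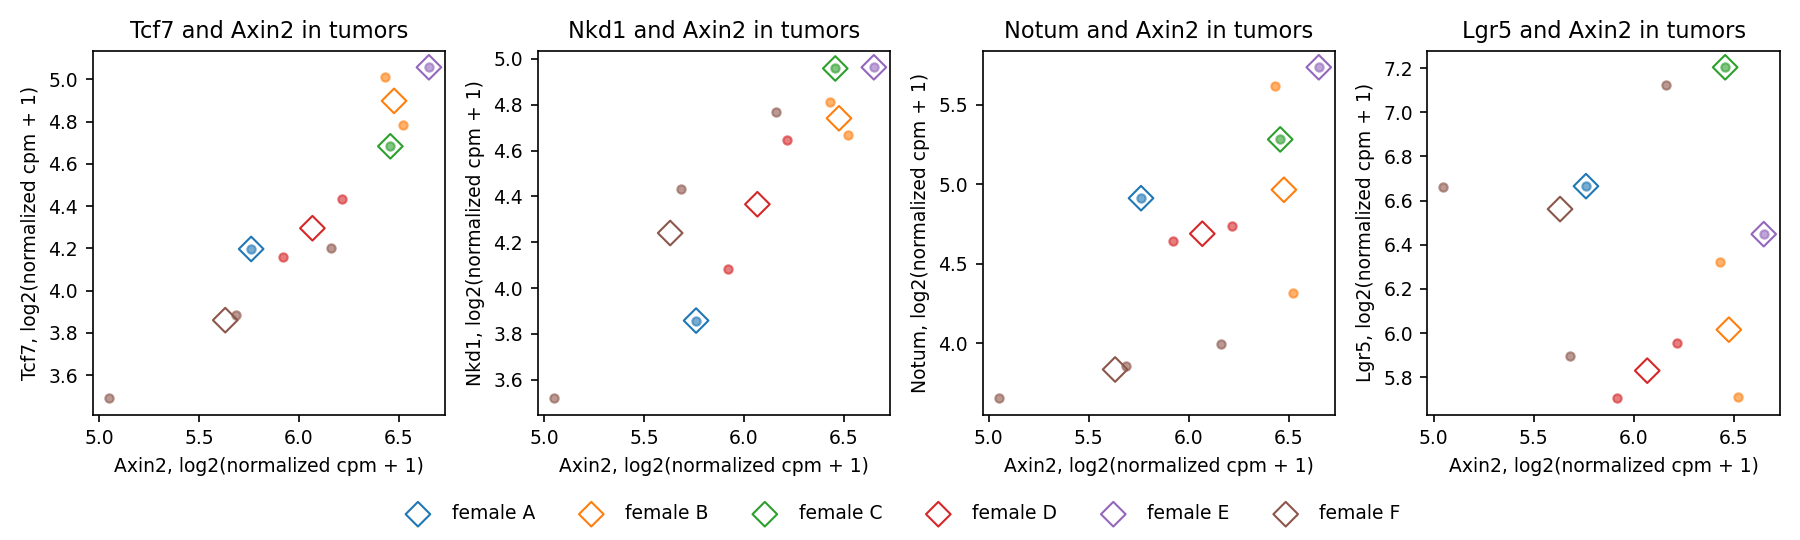
Levels of Tcf7, Nkd1, Notum and Lgr5 against Axin2 in the tumors, both as log2(normalized cpm + 1), with small circles for the 10 tumors, open diamonds for the means of the 6 females and a color for each female. The diamonds of Tcf7 rise with Axin2 from female F (5.63, 3.86) to female E (6.65, 5.06), whereas those of Lgr5 show no common order.

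Scores of pan-epithelial, hair follicle and lymphocyte genes were set against the 10 genes across the same 6 females, and 0 of 30 relations passed the adjustment (smallest adjusted p = 0.503 by exact permutation test), with 2 at an unadjusted p under 0.05. These were Axin2 with the pan-epithelial score (r = 0.797, exact p = 0.0486, r = 0.623 without the 2 farthest females) and Lef1 with the hair follicle score (r = 0.913, exact p = 0.0194), of which the latter was 0.387 without the 2 farthest females. With the lymphocyte score, r was -0.286 for Lef1 and -0.197 for Tcf7, and with the hair follicle score it was 0.549 for Tcf7. Tcf7 had r = 0.784 with the pan-epithelial score (exact p = 0.0625), and 0.383 without the 2 farthest females. When the 10 tumors were taken as separate samples, r with the pan-epithelial score was 0.855 for Axin2 and 0.842 for Tcf7, both with an adjusted p of 0.0399 by permutation test, and the 10 tumors include several of 1 female. After scaling to the pan-epithelial genes, r of Tcf7 with Axin2 was 0.959, as given above.

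Across the 10 tumors and 11794 other genes past the filter, Tcf7 ranked 4 in likeness to Axin2 with r = 0.950. Slc11a2 (0.964), Slc7a1 (0.961) and Mis12 (0.960) ranked above it and Shkbp1 (0.950) followed. Nkd1 ranked 94 (0.909), Notum 2195 (0.708) and Nkd2 4184 (0.461). The genes most like Lgr5 were Lpar1 (0.886), Igdcc4 (0.884), Npc1 (0.879), B4galt4 (0.866) and Jun (0.864), and the other genes of the group past the filter had r between -0.278 (Tcf7l1) and 0.118 (Notum). These values are descriptions over tumors that share females, library depth and, for tumor 9, a large ribosomal share.

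For Axin2 and Nkd1, a pair of feedback targets higher in every tumor than in every gland, the sequence before a RefSeq transcript start is shown. Both runs are 250 bases, 5′ to 3′ on the strand of the gene, from RefSeq on GRCm38.p6 (mm10). The window of Axin2 lies at chr11:108920099-108920348 (plus strand), directly upstream of a RefSeq transcript start, and that of Nkd1 at chr8:88527383-88527632 (plus strand). The RefSeq gene records start further upstream, at position 108917828 for Axin2 and 88521342 for Nkd1. Both windows therefore lie within the genes as annotated there.
Axin2: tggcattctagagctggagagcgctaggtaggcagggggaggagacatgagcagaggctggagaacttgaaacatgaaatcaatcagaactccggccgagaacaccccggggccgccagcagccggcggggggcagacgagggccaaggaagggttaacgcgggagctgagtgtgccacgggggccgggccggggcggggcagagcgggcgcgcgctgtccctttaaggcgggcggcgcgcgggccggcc
Nkd1: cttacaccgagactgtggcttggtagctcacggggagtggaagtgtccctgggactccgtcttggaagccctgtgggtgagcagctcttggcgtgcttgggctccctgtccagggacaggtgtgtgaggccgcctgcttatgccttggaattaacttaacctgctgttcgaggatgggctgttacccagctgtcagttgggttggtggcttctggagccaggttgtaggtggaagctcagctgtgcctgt
Windows from 250 bases before to 50 after the start were searched for CTTTGAT and CTTTGAA, forms of the Lef/Tcf motif, on both strands. The table held 12 windows of 8 of the 10 genes, without Lgr5 and Notum, and 0 of the 12 had a match, against 2842 of all 32851 windows (8.65%). No letters are therefore capitalized above, and the search covers these windows only.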

How the data were processed

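Total RNA of flash-frozen tissue had been sequenced in pairs of reads, and the authors mapped these to mm10 (Rsubread), obtained counts per gene (featureCounts) and applied the normalization of edgeR. Strand setting and annotation of the counting are not given in the sources used here. The table deposited by the authors holds signal values, normalized cpm for 13 libraries, and not read counts. Dividing by what 1 read is worth gave whole numbers for 100% of the values in each library, within a tolerance of 0.01, so that reads could be recovered. The labels name the UNMC core facility and Novogene without assigning libraries, so no sequencing batch could be tested.

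Values were taken as log2(normalized cpm + 1) and fitted with limma 3.58.1 in R 4.3.3 with a trend of the variance on the mean, tissue as the only term and all 13 libraries. A gene was tested unless most libraries had it at 5 normalized cpm or below, which kept 11795 of 15213. Adjusted p-values are Benjamini-Hochberg values over all genes tested, from limma unless an exact test is named. Tumors of 1 female were taken as separate samples in this fit, and their estimated correlation was 0.048. Nothing states that libraries of a group were prepared apart, so p-values measure the spread between these samples only. Alternatives used edgeR 4.0.16 and DESeq2 1.42.0 on the recovered reads, other pseudocounts and filters, scaling to 17 pan-epithelial genes, means per female, a replicate block and omission of libraries. Exact permutation tests used SciPy 1.17.1. The fit was tested on simulated data.

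The 10 genes, the pathway and marker lists and the tests were chosen with earlier results of these data known. Named genes were the 10 genes, in each pathway list up to 3 called with the largest rise and 3 with the largest fall, Rspo1, Rnf43, Znrf3, Ctnnb1, Tcf7l2, Tle1 to Tle5, Ccnd1 and Myc, and the 5 genes most like Axin2 and Lgr5. Intervals and floors cover counting error only. Reads of the paralogs Nkd1 and Nkd2 or of overlapping genes could not be reassigned.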

Additional observations from a re-analysis of the deposited data

Results flagged for a closer look

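Lef1 in tumor 7, at 9.12 normalized cpm, stood farther from the other 9 tumors (0.296 to 1.18) than Dixon's 95% limit for 10 samples allows. It was the only one of the 10 genes with such a tumor, and chance gives about 1 in 20 groups. Without tumor 7, the difference of Lef1 between tumors and glands was -2.63.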

How the results depend on the processing

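Depth limits Lgr5 and Notum in the glands, which rest on 2 to 14 reads in each library, and 3 glands, of which 2 hold many lymphocyte transcripts, limit Lef1 and Tcf7. Of all genes, 2029 were called with the settings used, 3141 without the filter, 4557 (556 higher, 4001 lower) after scaling to pan-epithelial genes, and between 1661 and 2660 with 1 library left out. Samples share only a number, which names different mice. With that number as a replicate block, 544 genes and 4 of the 10 genes described (not Nkd1 and Tcf7l1) were called. Tumors 4 to 10 have no gland of their number, so that fit compares only tumors 1 to 3 with the glands. Same-numbered samples had correlations of their deviations of -0.579, 0.045 and -0.664. Of the other pathway genes, 7 were called, against 18 (2 higher, 16 lower) after epithelial scaling, 3 with the block and 3 against gland 2 alone, where the spread comes from the tumors. Of the 9 relations with Axin2, 1 passed, against 2 with 10 tumors as separate samples, 0 after epithelial scaling and 0 without tumor 9. With any female left out 0 passed, but 5 females leave a lone relation at 0.0750 at best. That last count therefore says nothing about the stability of a lone relation. Of the 30 relations with cell type scores, 0 passed, against 2 with the 10 tumors.

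Some genes that were not called changed sign. After epithelial scaling this held for Rnf43 (-0.48), Ctnnb1 (-0.14), Tle1 (-0.41) and Myc (-0.75), against gland 2 alone for Rnf43 (-0.0095) and Myc (-0.20), and for Myc also without female F (-0.00049) and in a range of -0.019 (without gland 3) to 0.21 (without gland 2) with 1 library left out. Epithelial scaling moved the median of all genes to -0.78. The cause of the other shifts was not tested. Of 280 differences of the 10 genes under other settings, 252 moved by less than the standard deviation among tumors. The settings without glands 1 and 3, without tumors 7 and 9 and without tumor 9, and the folds of means without a gland, were chosen after seeing the data.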
